A study of Rattus norvegicus with 10 samples.

Results

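The sodium-potassium ATPase carries sodium out of the cell and potassium into it, and in the choroid plexus it sits on the membrane that faces the ventricle. A working pump joins a catalytic alpha subunit to a glycosylated beta subunit, which the pump needs to fold and to reach the cell surface, and a small FXYD protein can bind the pair and set its affinity for sodium. Described here are the 4 genes ATP1B1, ATP1B2, ATP1B3 and FXYD1, out of 32883 genes listed for each rat. The study's table of transcript levels pairs each of their symbols with an Ensembl identifier of the deposited files. They were chosen with earlier results of these data known. ATP1B1 (ENSRNOG00000002934) encodes the beta subunit found in most tissues, ATP1B2 (ENSRNOG00000011227) a beta subunit first known as an adhesion molecule on glia, and ATP1B3 (ENSRNOG00000011501) a further, widely expressed beta subunit. FXYD1 (ENSRNOG00000021079) encodes phospholemman, which inhibits the pump until protein kinases phosphorylate it. All 4 were abundant enough to be tested.

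RNA was sequenced from the choroid plexus of 10 female Wistar rats at 27 weeks of age, 5 fed a nutrient source-matched control diet and 5 a high fat diet (HFD), with 1 library per rat. By its methods, the study took control rats under and HFD-fed rats over a limit of body weight, so that diet and weight cannot be told apart. The tissue is bulk, so that fewer cells of a type and less RNA per cell cannot be told apart either. Transcript levels are in TPM, the share of a transcript in all transcripts once its length is allowed for, which can be set side by side between genes. The labels give the same nominal sequencing output for each library, but the reads behind each value are unknown, since TPM carry no read number. For comparisons of a gene between rats, TPM were divided by a scaling factor of the rat and are called rescaled TPM.

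Control rat 1 was unlike the rest. Its scaling factor was 0.749, against 0.945 to 1.13 in the others, and its mean effective transcript length was 789 bases, against 905 to 918 in the other control rats and 874 to 968 in HFD-fed rats. This mean weights each transcript by its level, so that it is not independent of the levels of abundant transcripts given below. After rescaling, 1845 of its genes were more than 2-fold away from the median rat, where other rats had 172 to 235 such genes. All 10 choroid plexus epithelium markers on the list used were above 0 in every rat. By limma, 2 of them, both higher in HFD-fed rats, had an unadjusted p under 0.05. Of all 12198 genes tested, 8.62% had one, and 461 genes had one and were higher in HFD-fed rats. Without control rat 1, 2 markers were higher and 1 lower at that limit, where 5.53% of all genes were higher and 6.25% lower. Transthyretin (TTR), the most abundant of the markers, was at 530361 rescaled TPM in control rat 1, 316761 to 326365 in the other control rats and 287895 to 404602 in HFD-fed rats. Rescaled values are not shares of all transcripts, and those of control rat 1 were raised by its small scaling factor. With TTR, the list summed to 536922 rescaled TPM in control rat 1, above 325529 to 334656 in the other control rats. The other 9 markers summed the opposite way, to 6561 in control rat 1, 8291 to 9195 in the other control rats and 8598 to 9384 in HFD-fed rats. The diet comparisons of the 4 genes and their ratios are given with and without control rat 1, a choice made with earlier results of these data known.

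To show the start regions of the pair of genes whose ratio separated the diets below, the 250 bases before the RefSeq start of FXYD1 (chr1:95418581-95418830, minus strand, build GRCr8) and of ATP1B2 (chr10:54823709-54823958, minus strand, build GRCr8) are printed 5′ to 3′. Capitals mark each match, on either strand, to TATAAA (the TATA box), GGGCGG (the GC box), CCAAT (the CCAAT box) or CACGTG (an E-box).
FXYD1: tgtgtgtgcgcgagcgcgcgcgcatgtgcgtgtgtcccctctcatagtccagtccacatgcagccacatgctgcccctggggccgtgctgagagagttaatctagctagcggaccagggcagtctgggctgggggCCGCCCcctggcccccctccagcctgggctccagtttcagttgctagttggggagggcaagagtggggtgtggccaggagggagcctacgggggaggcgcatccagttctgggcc
ATP1B2: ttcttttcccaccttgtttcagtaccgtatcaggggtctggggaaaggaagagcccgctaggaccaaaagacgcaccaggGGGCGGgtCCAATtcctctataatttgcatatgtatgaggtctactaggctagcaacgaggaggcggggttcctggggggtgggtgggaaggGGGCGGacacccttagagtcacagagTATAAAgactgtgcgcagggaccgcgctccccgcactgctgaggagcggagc
The FXYD1 window held 1 GC box on the other strand and no match to the other 3 motifs. The ATP1B2 window held 1 TATAAA, which began 52 bases before the start, 2 GC boxes and 1 CCAAT. The window of ATP1B3 held 6 GC boxes and 2 CCAAT, and neither of the other motifs. In all 33469 RefSeq windows of this length, TATAAA was found in 12.9%, GGGCGG in 30.5%, CCAAT in 34.0% and CACGTG in 5.59%. Only these letters were searched, and a match is no evidence of binding.

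FXYD1 was the most abundant of the 4 transcripts and ranked 74 of all genes by mean TPM, with ATP1B1 close to it at rank 83. This order rests on control rat 1, the only rat in which FXYD1 was far above ATP1B1. Without that rat the order was reversed, with mean TPM as deposited of 1064 for ATP1B1 and 1062 for FXYD1 in control rats and 1030 and 836 in HFD-fed rats. ATP1B1 was the higher of both in 6 of 10 rats. ATP1B3 ranked 509 and ATP1B2 792. In control rats 2 to 5, FXYD1 at 936 to 1120 and ATP1B1 at 1014 to 1086 rescaled TPM did not separate, while ATP1B3 at 175 to 190 lay far below both and above ATP1B2 at 101 to 111. In HFD-fed rats the order of FXYD1 and ATP1B1 was the same in every rat, with ATP1B1 higher, since the ratio of FXYD1 to ATP1B1 was at most 0.966. ATP1B1 thus supplied most of the beta subunit transcripts in all 10 rats, with a share of 67.3% to 78.5% of the TPM of the 3 beta genes.

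ATP1B1, the main beta subunit, differed between the diets by less than the spread of the rats. Control rats 1 to 5 had 855, 1086, 1024, 1014 and 1015 rescaled TPM, and HFD-fed rats 1 to 5 had 931, 1042, 969, 1041 and 976. The groups overlapped, and control rat 1 was the lowest of all. The mean on the HFD was 992 ± 48.4, against 999 ± 85.7 on the control diet (SD, n = 5 each), a log2 difference of -0.0069 with a 95% interval from -0.17 to 0.16 (limma). As a percent, this interval runs from -11.2% to 11.6%, so that a difference of the ATP1B1 level within these bounds could not be told from none with 5 rats a diet. The exact two-sided permutation test gave p = 0.913. The sign of so small a difference turned to 0.095 when TPM were left as deposited, and the log2 difference was -0.062 without control rat 1.

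FXYD1 had the largest diet difference of the 4 genes, and it was lower in HFD-fed rats. Control rats 1 to 5 had 2715, 1120, 936, 1053 and 1025 rescaled TPM, and HFD-fed rats 1 to 5 had 667, 786, 848, 777 and 943. Control rat 1 lay above all others. HFD-fed rat 5 lay just above control rat 3, and the remaining HFD-fed rats lay below all control rats. With TPM as deposited, HFD-fed rat 5, at 1063, lay above control rat 3, at 980, and control rat 5, at 1044. The mean on the HFD was 804 ± 101, against 1370 ± 755 on the control diet (SD, n = 5 each). The log2 difference was -0.65 with a standard error of 0.26 and a 95% interval from -1.22 to -0.077 (limma), or a difference of -36.2%. The exact permutation test gave p = 0.0159. By limma, the unadjusted p was 0.0297 and the p adjusted over all 12198 genes tested was 0.558, so that FXYD1 did not pass the test across all genes.

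The difference was smaller without control rat 1 and kept its direction. Without that rat the log2 difference was -0.37 with a 95% interval from -0.58 to -0.16 (limma unadjusted p = 0.00278, adjusted p = 0.25, exact permutation p = 0.0317, where the smallest p of 4 rats against 5 is 0.0159). With TPM as deposited it was -0.55 (exact permutation p = 0.0238). FXYD1 was lower on the HFD whichever of the 10 rats was left out, and the limma p exceeded 0.05 without HFD-fed rat 1 (unadjusted p = 0.0652), 2 (unadjusted p = 0.0521) or 4 (unadjusted p = 0.0522). It also did so with mean effective length as a covariate, which was added after the values had been seen (log2 difference -0.41, unadjusted p = 0.0581). Of the 4 genes, FXYD1 alone had an unadjusted p under 0.05 in all 10 rats, where 8.62% of all genes tested had one and 4.84% had one and were lower in HFD-fed rats. By this limma fit, an adjusted p under 0.05 was found for 0 of all genes (0.0%) and so for 0 of the 4. The paper does report genes that differed between the diets, by a count-based test that was not used here. The diets overlapped for all 4 genes, where 3.4% of all genes had no overlap.

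**Figure D1:**
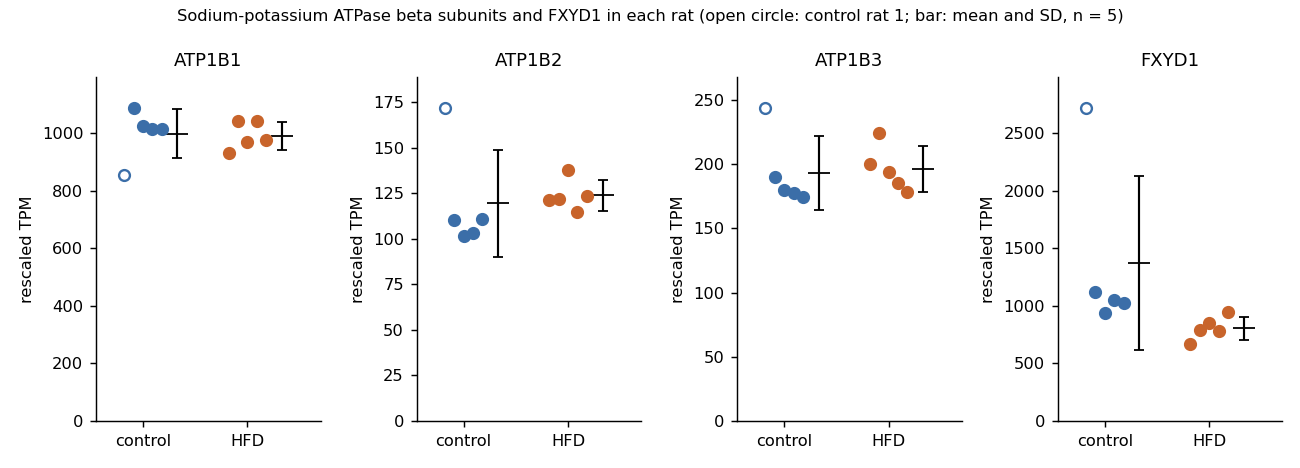
Rescaled TPM (y axis, linear, from 0) of ATP1B1, ATP1B2, ATP1B3 and FXYD1 in each of 5 control (blue) and 5 HFD-fed (orange) rats, with the mean and SD of each diet in black and control rat 1 as an open circle. Control rat 1 is the lowest control rat for ATP1B1 (855) and the highest for the other 3 genes (2715 for FXYD1), and the HFD-fed rats lie above the other 4 control rats for ATP1B2 and mostly below them for FXYD1.

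ATP1B2, the least abundant beta subunit, was not distinguished between the diets in all 10 rats, but was higher in every HFD-fed rat than in control rats 2 to 5. Control rats 1 to 5 had 172, 111, 101, 103 and 111 rescaled TPM, and HFD-fed rats 1 to 5 had 121, 122, 138, 115 and 123. Control rat 1 lay above all other rats, and the remaining control rats lay below all HFD-fed rats. With all rats the mean on the HFD was 124 ± 8.45, against 120 ± 29.4 on the control diet (SD, n = 5 each), a log2 difference of 0.077 with a 95% interval from -0.22 to 0.37 (limma adjusted p = 0.803, exact permutation p = 0.683).

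Without control rat 1, ATP1B2 had a log2 difference of 0.21 with a 95% interval from 0.086 to 0.34, that is 16.0% higher in HFD-fed rats (limma unadjusted p = 0.00399, adjusted p = 0.263, exact permutation p = 0.0159). With these 9 rats, 4.98% of all genes tested had no overlap between the diets, and 2.25% had none with the HFD-fed rats higher. An unadjusted p under 0.05 was found for 11.8% of all genes (5.53% higher and 6.25% lower in HFD-fed rats), and for 2 of the 4 genes described here, FXYD1 lower and ATP1B2 higher. An adjusted p under 0.05 was again found for 0 of all genes. With TPM as deposited, where control rat 1 is not raised by its small scaling factor, the difference of ATP1B2 was 0.18 in all 10 rats (limma unadjusted p = 0.0451, adjusted p = 0.723, exact permutation p = 0.0238), and 5.11% of all genes had an unadjusted p under 0.05 in that fit. The difference of ATP1B2 in all 10 rats was 0.23 with array weights, which gave control rat 1 a weight of 0.0733, and 0.22 with mean effective length as a covariate (limma adjusted p = 0.146 and 0.611).

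ATP1B3, the second of the beta subunits by level, was not distinguished between the diets in rescaled TPM, with or without control rat 1. Control rats 1 to 5 had 244, 190.3, 180, 178 and 175 rescaled TPM, and HFD-fed rats 1 to 5 had 200.4, 225, 194, 186 and 178. All HFD-fed rats lay within the range that control rat 1 gives the control diet, and HFD-fed rats 4 and 5 also lay among the other control rats. The mean was 197 ± 17.8 on the HFD and 193 ± 28.7 on the control diet (SD, n = 5 each), a log2 difference of 0.031 with a 95% interval from -0.19 to 0.25 (limma adjusted p = 0.899, exact permutation p = 0.746). It was 0.12 without control rat 1, with an interval from -0.031 to 0.27 (exact permutation p = 0.111), and the diets overlapped. With TPM as deposited the difference of ATP1B3 was 0.13 in all 10 rats (limma unadjusted p = 0.0671, adjusted p = 0.723, exact permutation p = 0.0317) and the same without control rat 1 (exact permutation p = 0.0635). A pseudogene, Atp1b3-ps2, is listed in RefSeq on a chromosome other than that of Atp1b3, and reads shared by near-identical copies can be split by RSEM, so that the level of ATP1B3 is uncertain to that extent.

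**Figure D2:**
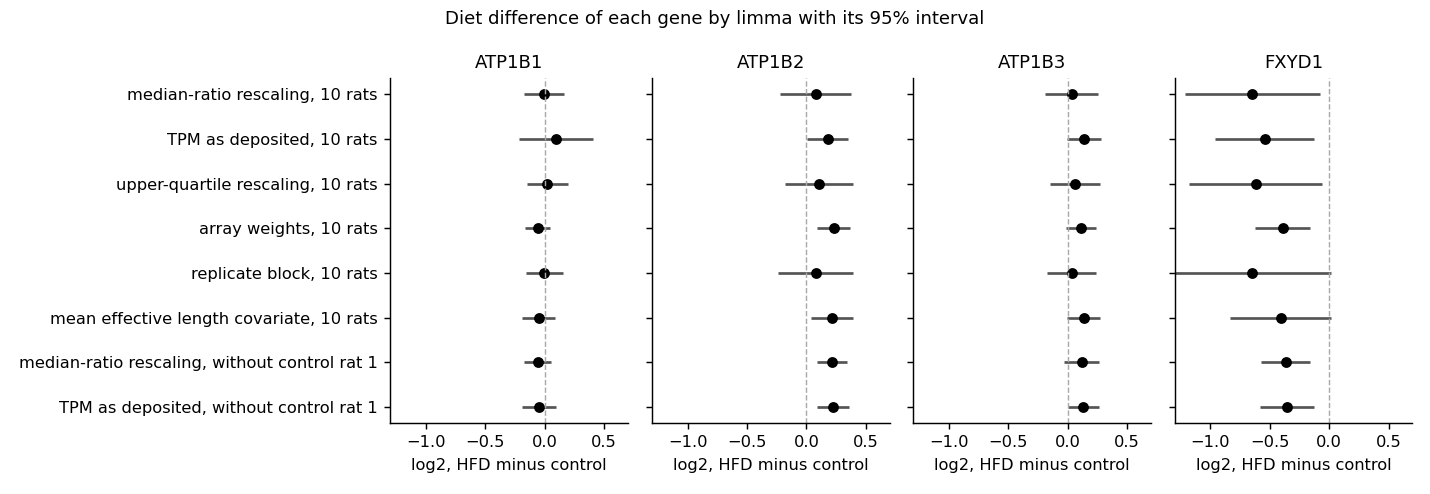
Log2 difference between HFD-fed and control rats (x axis, points) with its 95% limma interval (lines) for each gene under 8 ways of fitting, 6 with 10 rats and 2 without control rat 1. The FXYD1 points all lie below 0, from -0.65 to -0.36, those of ATP1B2 all lie above 0, from 0.077 to 0.23, and those of ATP1B1 lie on both sides of 0.

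The ratio of 2 transcripts within a rat does not depend on how the rats are scaled, and 6 ratios were tested by the exact two-sided permutation test, for which the smallest p of 5 rats against 5 is 0.00794. The ratio of FXYD1 to ATP1B2 separated the diets completely. It was 15.8, 10.1, 9.23, 10.2 and 9.23 in control rats 1 to 5 and 5.50, 6.44, 6.16, 6.78 and 7.64 in HFD-fed rats 1 to 5. Every HFD-fed rat lay below every control rat, with control rat 1 far above. The log2 difference was -0.72 with a standard error of 0.16 (p = 0.00794, exact permutation test, and 0.0317 after adjustment over the 6 ratios), or a difference of -39.5%. Without control rat 1 it was -33.3% and the diets still did not overlap (exact permutation p = 0.0159), where 19.9% of all other genes were lower relative to ATP1B2 in every HFD-fed rat.

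FXYD1 was also lower relative to ATP1B1 and to ATP1B3. With all rats, ATP1B1 and ATP1B3 differed by log2 values of only -0.0069 and 0.031, so that these ratios mostly repeat the FXYD1 difference of -0.65. They are no separate result. The adjustment over the 6 ratios does not cover all genes tested, where FXYD1 had an adjusted p of 0.558 (limma). The ratio of FXYD1 to ATP1B1 was 3.17, 1.03, 0.914, 1.04 and 1.01 in control rats 1 to 5, and 0.716, 0.754, 0.875, 0.747 and 0.966 in HFD-fed rats 1 to 5. Control rats 2 to 5 thus held the 2 transcripts at near equal levels, and only HFD-fed rat 5 reached the range of the control rats. The log2 difference was -0.64 (exact permutation p = 0.0159, 0.0317 adjusted over the ratios) with all rats and -0.31 (exact permutation p = 0.0317) without control rat 1, or -35.9% and -19.1%. The ratio of FXYD1 to ATP1B3 ranged from 5.21 to 11.1 in control rats and from 3.33 to 5.29 in HFD-fed rats, a log2 difference of -0.68 (exact permutation p = 0.0159, 0.0317 adjusted over the ratios), and without control rat 1 the highest control value was 5.92 and the difference -0.49 (exact permutation p = 0.0317). For all 3 ratios with FXYD1, each of the 10 sets that left out 1 rat kept p under 0.05 by the same test, with a highest p of 0.0317.

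Many other genes also separated the diets relative to FXYD1. Of the 12197 other genes tested, 28.1% had a ratio to FXYD1 that did not overlap between the diets, in every case with the gene higher relative to FXYD1 in HFD-fed rats, and ATP1B2 was 1 of them. The share was again 28.1% without control rat 1. Against ATP1B2 as the common partner, 3.42% of the other genes did not overlap, and FXYD1 was among the 3.34% that were lower on the HFD. Without control rat 1 that share was 19.9%.

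**Figure D3:**
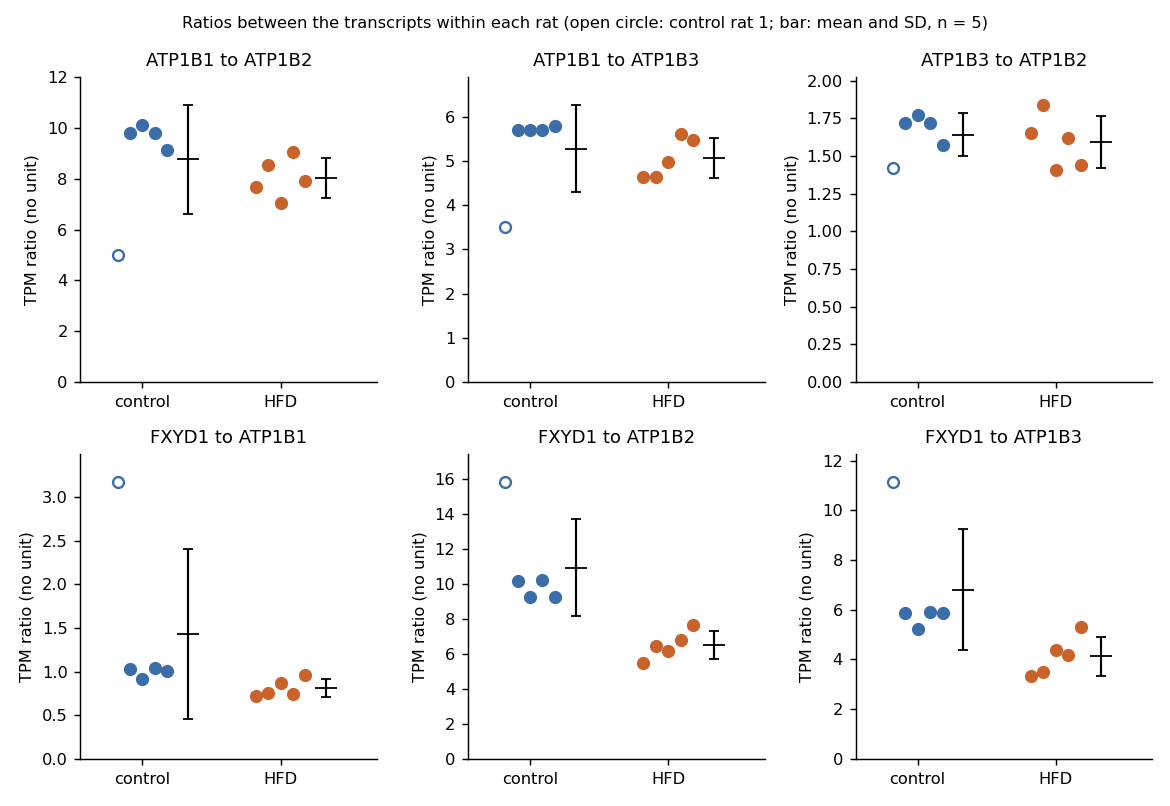
TPM ratio (y axis, linear, from 0) for 6 pairs of the 4 transcripts in each control (blue) and HFD-fed (orange) rat, with the mean and SD of 5 rats in black and control rat 1 as an open circle. In the panel of FXYD1 to ATP1B2, the HFD-fed rats, 5.50 to 7.64, all lie below the control rats, 9.23 to 15.8.

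Among the beta subunits, the diets were not distinguished with all rats, and the value of each ratio with ATP1B1 turned on control rat 1. The ratio of ATP1B1 to ATP1B2 was 4.98, 9.82, 10.1, 9.81 and 9.14 in control rats 1 to 5 and 7.68, 8.54, 7.04, 9.08 and 7.91 in HFD-fed rats 1 to 5 (exact permutation p = 0.754). Control rat 1 lay below all HFD-fed rats and the other control rats above them. Without control rat 1 the HFD-fed rats differed by -17.5% in this ratio (exact permutation p = 0.0159). ATP1B1 was thus among the same 19.9% of genes in these 9 rats.

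The ratio of ATP1B1 to ATP1B3 was 3.51 in control rat 1 and 5.70 to 5.80 in the other control rats, a very narrow range, against 4.65, 4.64, 4.99, 5.61 and 5.48 in HFD-fed rats 1 to 5. With all rats the exact permutation p was 0.889, and without control rat 1 the ratio differed by -11.7% (exact permutation p = 0.0159), where 8.82% of other genes had a ratio to ATP1B3 that was lower in every HFD-fed rat. The ratio of ATP1B3 to ATP1B2 was 1.42 to 1.77 in control rats and 1.41 to 1.84 in HFD-fed rats (exact permutation p = 0.611), and it overlapped without control rat 1 as well (exact permutation p = 0.286).

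As shares of all beta subunit transcripts, ATP1B1 took 67.3% in control rat 1, 78.0% to 78.5% in the other control rats and 74.3% to 77.6% in HFD-fed rats. The mean share was 75.6% ± 1.40 (SD, n = 5) on the HFD and 76.1% ± 4.90 (SD, n = 5) on the control diet (exact permutation p = 0.913). Without control rat 1, the control mean was 78.3% ± 0.189 (SD, n = 4). The HFD-fed rats were then 2.69 percentage points lower with no overlap (exact permutation p = 0.0159). This share is set by the ratios of ATP1B1 to ATP1B2 and to ATP1B3, so that it is no further separation. In these 9 rats, 19.9% of other genes were lower relative to ATP1B2 in every HFD-fed rat, and 8.82% relative to ATP1B3. ATP1B2 took 7.77% to 8.54% of the beta transcripts in control rats 2 to 5, 8.55% to 10.6% in HFD-fed rats and 13.5% in control rat 1. ATP1B3 took 13.4% to 13.8% in control rats 2 to 5, 13.8% to 16.2% in HFD-fed rats and 19.2% in control rat 1. The sum of the 3 beta transcripts stayed within 1253 to 1389 rescaled TPM in all 10 rats, with means of 1312 on both diets, and a control mean of 1322 without control rat 1. This range depends on the scaling. As deposited, ATP1B1, the largest part of the sum, was 641 TPM in control rat 1, against 1033 to 1098 in the other control rats. In HFD-fed rats it was 915 to 1146.

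**Figure D4:**
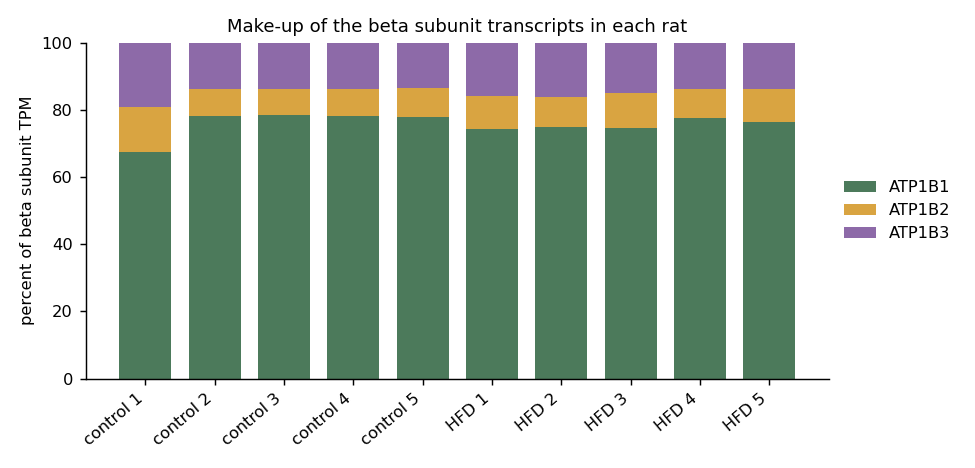
Share of ATP1B1 (green), ATP1B2 (yellow) and ATP1B3 (purple) in the summed TPM of the 3 beta subunit genes (y axis, percent) in each of the 10 rats (x axis). ATP1B1 takes 67.3% in control rat 1, 78.0% to 78.5% in control rats 2 to 5 and 74.3% to 77.6% in HFD-fed rats.

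Control rat 1 differed from the other control rats by more for FXYD1 than for most genes. Relative to the median of control rats 2 to 5, its rescaled FXYD1 level was 2.61-fold, with 8.21% of the 12198 genes tested at least as far from that median in either direction and 1.19% as high or higher. Its ATP1B2 was 1.60-fold and its ATP1B3 1.36-fold, levels reached or passed by 8.94% and 19.7% of genes. Its ATP1B1 was 0.839-fold, with 34.5% of genes as low or lower. In rescaled TPM, the 4 genes of this library thus lay on both sides of the other control rats. The folds depend on its small scaling factor. As deposited, its ATP1B3 was 183 TPM, within 178 to 192 in the other control rats. Its ATP1B1 was 641, against 1033 to 1098, its ATP1B2 129, against 106 to 113, and its FXYD1 2034, against 980 to 1132. In the same library the endothelial marker PLVAP was 97.2, against 53.8 to 62.4 in the other control rats and 51.0 to 67.2 in HFD-fed rats, and the mural marker RGS5 was 42.6, against 106 to 110 and 101 to 129. All marker levels are in rescaled TPM. The summed level of the 3 named blood genes was 7430 in control rat 1, 3444 to 6501 in the other control rats and 2933 to 6009 in HFD-fed rats, with none at 0. Of the markers listed, 1 of 5 endothelial, 1 of 6 mural, 1 of 5 stromal, 1 of 7 macrophage, 3 of 9 blood and 1 of 4 ependymal genes had a name in the tables used. The ependymal one was 75.5 in control rat 1, 41.4 to 57.7 in the other control rats and 33.6 to 71.7 in HFD-fed rats. The stromal marker DCN was 116 in control rat 1, 140 to 231 in the other control rats and 160 to 227 in HFD-fed rats, and the macrophage marker CD74 was 195, 150.2 to 218 and 178 to 240.1. The unadjusted limma p between the diets was 0.229 for PLVAP, 0.16 for RGS5, 0.101 for DCN and 0.329 for CD74, and without control rat 1 it was 0.588, 0.164, 0.221 and 0.356. The part of these values in the results above was not tested. Markers of astrocytes, neurons and muscle, cells that also use ATP1B2 or FXYD1, had no name in the tables used, so that their level was not analysed here.

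**Figure D5:**
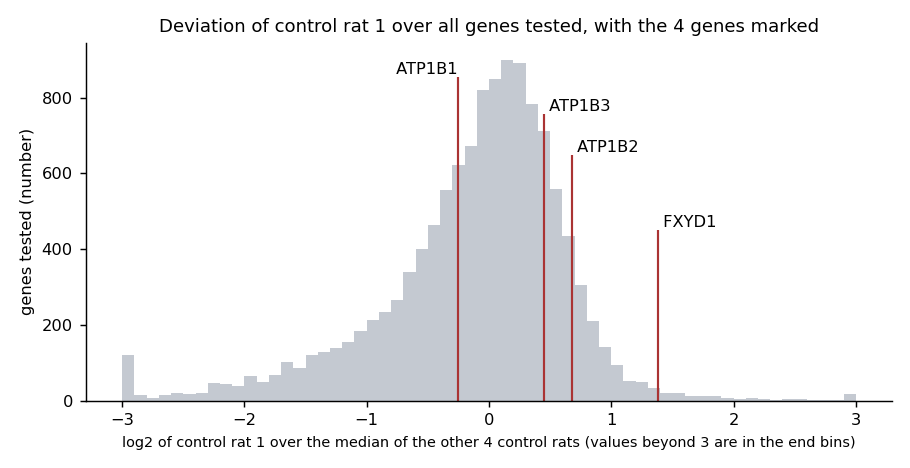
Number of genes tested (y axis) by the log2 ratio, in rescaled TPM, of control rat 1 to the median of the other 4 control rats (x axis, bins of 0.1, values beyond 3 in the end bins), with the 4 genes as red lines. FXYD1 lies in the upper tail (2.61-fold) and ATP1B1 below 0 (0.839-fold).

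Of 30 genes listed as partners of the pump (kinases and phosphatases, membrane anchors, folding helpers and others), 13 had a symbol in the tables used and all 13 were tested. An unadjusted p under 0.05 was found for 1, lower in HFD-fed rats, and for 0 higher, and 0 passed the adjusted test. Among all genes tested these shares were 4.84% lower and 8.62% in all, so that 1 of 13 is near the background. The median log2 difference of the 13 was -0.058, against 0.014 over all genes tested, and -0.032 against 0.0020 without control rat 1. The lower one was PPP1R1A, which encodes an inhibitor of protein phosphatase 1, the enzyme that dephosphorylates phospholemman. Rescaled TPM of PPP1R1A averaged 325 ± 46.1 on the HFD and 433 ± 113 on the control diet (SD, n = 5 each), a log2 difference of -0.39 (limma unadjusted p = 0.0292, adjusted p = 0.558). Like FXYD1 it was highest in control rat 1, at 632, and without that rat its log2 difference was -0.25 (limma unadjusted p = 0.0276, adjusted p = 0.367). The next 3 by p were SPTBN1, a spectrin of the membrane skeleton, with a log2 difference of 0.32 (limma unadjusted p = 0.0582), PPP1CA, a catalytic subunit of protein phosphatase 1, with -0.18 (limma unadjusted p = 0.0676), and AP2M1, a clathrin adaptor subunit, with -0.17 (limma unadjusted p = 0.103). Both PPP1CA and AP2M1 were highest in control rat 1, without which their differences were -0.11 and -0.077. SPTBN1 had 0.16 in these 9 rats (limma unadjusted p = 0.0235), so that 1 partner was higher and 1 lower at that limit, where 5.53% of all genes were higher and 6.25% lower.

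Of 26 other P-type ATPases considered, the pump's wider enzyme family, 3 had a symbol in the tables used. An unadjusted p under 0.05 was found for 0 of these 3, where 8.62% of all genes tested had one. Their log2 differences by limma were 0.33 for ATP11A, which flips lipids across the membrane (unadjusted p = 0.0936), 0.29 for ATP2B3, a calcium pump of the plasma membrane (unadjusted p = 0.141), and 0.094 for ATP2A2, the calcium pump of the endoplasmic reticulum (unadjusted p = 0.101). ATP11A was at 55.6 in control rat 1 and ATP2B3 at 99.0, each the lowest of all rats, and without that rat their log2 differences were 0.15 and 0.11. The median of the 3 was 0.29 with all rats and 0.11 without control rat 1. Over all genes tested it was 0.014 and 0.0020.

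The genes whose levels followed each member most closely were different for each of the 4. Over the 9 rats without control rat 1, with log2 values centred within each diet, 1990 named genes whose rescaled TPM averaged 10 or more were ranked by Pearson's r as a description, with rats that share a scaling step and a small n. Centring takes out the diet difference, so that a close gene need not differ between the diets in the same direction. For FXYD1 the closest were LMAN2 (r = 0.941), SEPTIN9 (r = 0.92) and SULF1 (r = 0.915). In these 9 rats the log2 diet difference was -0.37 for FXYD1, -0.083 for LMAN2 and -0.12 for SEPTIN9. It was 0.20 for SULF1, the opposite direction (limma unadjusted p = 0.00153). For ATP1B1 they were NDUFA3 (r = 0.973), RSPH4A (r = 0.945) and CST3 (r = 0.929). For ATP1B2 they were PALMD (r = 0.957), MT-ND4L (r = 0.927) and BCAR1 (r = 0.901), and for ATP1B3 C1GALT1C1 (r = 0.981), TCTEX1D2 (r = 0.981) and MFGE8 (r = 0.967). Between the members themselves r lay from -0.309 for FXYD1 and ATP1B3 to 0.423 for FXYD1 and ATP1B2, so that none of the 4 was among the 3 closest to another.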

How the data were processed

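The deposited files hold TPM and FPKM per Ensembl gene for 10 rats, 5 per diet. The authors aligned paired-end reads to Rnor_6.0 with STAR (2.7.2a in the submitters' processing notes) and made the deposited TPM and FPKM with RSEM 1.3.3. FPKM served only for the mean effective length of each rat. The authors' count-based test was not used. A scaling factor per rat was the median, over 12037 genes, of its TPM relative to the mean rat, set to a geometric mean of 1. Genes averaging 1 rescaled TPM or more entered limma 3.58.1 (R 4.3.3) on log2(rescaled TPM + 0.1), using a mean-variance trend. The term of the fit was the diet, with Benjamini-Hochberg adjustment over 12198 genes. This scale understates changes of low genes. Ratios, shares and single genes were compared by exact two-sided permutation tests over 252 assignments (scipy 1.17.1). The limma fit was checked on simulated data. Symbols came from tables of the paper, a shortened copy among them, which name 2015 identifiers, 2001 with a symbol of their own. Promoter windows came from RefSeq (GRCr8), with 3 of 4 members found, and ATP1B1 had no entry.

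The design assumed TPM, and the members, lists and tests were chosen with earlier results of these data known. Named genes were the 4 members, up to 4 genes of each list with the smallest p and the 3 genes most like each member. Some other genes of the pump and of the lists are not reported here. Alternatives were TPM as deposited, upper-quartile scaling, pseudocounts of 1 and 0.01, other filters, no trend, array weights, a replicate block, a mean effective length covariate (chosen after seeing the data) and leaving out each rat. No pairing was given by the labels. The reads behind each value are unknown, and p-values measure the spread between rats.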

Additional observations from a re-analysis of the deposited data

Results flagged for a closer look

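The highest and lowest rat on each diet were compared with their neighbours by Dixon's ratio, the gap to the next rat over the whole range, with a limit of 0.71 that chance alone passes in about 5% of such groups. Of 22 groups of values for the 4 genes, their 6 ratios and the ATP1B1 share, 9 passed, and the rat was control rat 1 in all 9. It was high for FXYD1 at 2715 rescaled TPM, against 936 to 1120 in the other control rats, for ATP1B2 at 172 against 101 to 111, and for ATP1B3 at 244 against 175 to 190.3. Its ratios of FXYD1 to ATP1B1, 3.17, to ATP1B2, 15.8, and to ATP1B3, 11.1, were high, and its ratios of ATP1B1 to ATP1B2, 4.98, and to ATP1B3, 3.51, were low. Its ATP1B1 share of the beta transcripts was low at 67.3%, against 78.0% to 78.5%. These values are not independent, since they come from 4 genes of 1 library. ATP1B1 itself, at 855 against 1014 to 1086, had a ratio of 0.685 and did not pass. No HFD-fed rat passed for any of these values. For single genes the ratio was taken on rescaled TPM, which depend on the scaling factor of the rat. As deposited, control rat 1 had 183 TPM of ATP1B3, within 178 to 192 in the other control rats. It had 129 of ATP1B2, against 106 to 113, and 641 of ATP1B1, against 1033 to 1098. Its FXYD1 was 2034, against 980 to 1132. Dixon's ratio was not taken on deposited TPM. The cause of the flags was not tested.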

How the results depend on the processing

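FXYD1 kept a negative and ATP1B2 a positive difference in all 22 alternatives each, with adjusted p by limma from 0.144 to 0.723 for FXYD1 and from 0.146 to 0.94 for ATP1B2. Leaving out 1 rat gave -0.75 to -0.37 for FXYD1 and 0.025 to 0.21 for ATP1B2. ATP1B1 turned to 0.095 under TPM as deposited and 0.022 under upper-quartile scaling, and ran from -0.062 to 0.024 when 1 rat was left out, where ATP1B3 ran from -0.018 to 0.12. When 1 rat was left out, the log2 ratios ran from -0.28 to -0.022 for ATP1B1 to ATP1B2 and from -0.18 to 0.0018 for ATP1B1 to ATP1B3, and the ATP1B1 share from -2.69 to 0.0933 percentage points. The labels give both diets replicate numbers 1 to 5, but same-numbered rats deviated together with correlations of only -0.0376 to 0.116 and 1 control rat of 5 correlated best with its own number, and they were left unpaired. Under the replicate block, the 3 ratios with FXYD1 had differences of -0.64, -0.72 and -0.68 for ATP1B1, ATP1B2 and ATP1B3 and an exact permutation p of 0.0625, the smallest that 5 pairs allow, and FXYD1 an unadjusted limma p of 0.0543. Genes with an adjusted p under 0.05 were 0, against 1 with no filter, 3 with array weights and 2 with the mean effective length covariate, and 0 whenever 1 rat was left out. Genes with an unadjusted p under 0.05 were 1051, against 624 with TPM as deposited, 622 with a mean of at least 10, which tests fewer genes, and 1877 with array weights, and from 792 to 1445 when 1 rat was left out. The causes were not tested. The reads behind each value are unknown, so that counting error could not be given.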
